A study of Canis lupus familiaris with 21 samples.

Results

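The extracellular matrix of canine cutaneous histiocytoma (CCH) was followed through a short list of genes for collagen, fibronectin and connective tissue cells. The list held 6 names, which were COL1A1, COL3A1, FN1, ADAMTS2, FAP and PDGFRB. Of these, 5 were row names of the deposited table of 800 probes and were measured in all 21 libraries. FAP was not analysed here. The genes were taken by name.

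CCH, a tumor of Langerhans cells in the skin of mainly young dogs, often disappears on its own. RNA of privately owned dogs, extracted from formalin-fixed, paraffin-embedded (FFPE) tumors, was hybridized to the nCounter Canine IO Panel, an assay that counts color-coded probes bound to single RNA molecules. Group 1 was tumor tissue of stage 1 (n = 5), group 2a was tumor cell-enriched tissue of stage 2 (n = 5), group 2b was lymphocyte-enriched tissue of stage 2 (n = 6) and group 3 was lymphocyte-enriched tissue of stage 3 (n = 5). No dog was described as treated, and dogs differed in breed, sex and age. By the sample labels, dogs of group 1 were 0.5 to 5 years old, those of group 2a 0.6 to 3, those of group 2b 0.3 to 6 and those of group 3 1.5 to 9, with no age given for 1 dog each of groups 1 and 2b. The youngest dog of group 2b is listed as somewhat older in another sample list of these tumors. In group 2b, 4 of the 6 libraries were pools, of which 3 held 4 dogs and 1 held 3 dogs, so that its spread mixes single dogs with averages over dogs. Stage 2 areas were punched out of their blocks and embedded again, a step that is not described for stages 1 and 3. Tissue of all 4 groups holds a mixture of cells, and in such bulk RNA fewer cells of a type and less RNA per cell cannot be told apart.

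Interstitial collagens form the fibers that give the dermis its strength. Fibroblasts secrete them as procollagens, whose ends are trimmed by proteases outside the cell before fibers form. Fibronectin is laid down beside collagen, connects it to integrins on the cell surface, and is abundant in wounds and in newly formed matrix. Pericytes and fibroblasts carry receptors for platelet-derived growth factor, which drives their division and migration.

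Recovered counts per library, that is counts before the scaling applied by the authors, ranged from 484696 to 1315188, and DV200, the percentage of RNA fragments above 200 nucleotides, ranged from 64.5% to 76.9%. Group 1 had the lowest DV200 values (64.5% to 71.2%, against 70.5% to 76.9% in the other groups). Median normalized counts of a library were 159 to 259 in groups 1 and 2a and 324 to 363 in groups 2b and 3, so that any comparison of both kinds of area rests on the scaling, in which 20 reference genes are set equal. CD3E, a chain of the T cell receptor complex, had a median of 939 normalized counts in the 10 tumor cell-rich libraries and 5005 in the 11 lymphocyte-enriched ones. CD207, the langerin of Langerhans cell granules, was low throughout (7.56 to 38.55), whereas FLT3, a receptor of dendritic cell precursors, ran from 849.65 to 3647 in tumor cell-rich libraries and from 211 to 708 in lymphocyte-enriched ones.

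The collagen chains did not differ in mean level between the 4 groups beyond their error, but differed widely between tumors of 1 group. COL1A1, the main chain of type I collagen, stood at 5883, 12682, 1261, 3644 and 10721 normalized counts in replicates 1 to 5 of group 1. It stood at 6271, 4260.2, 11842, 4989 and 10713 in group 2a. In group 2b the lowest value was 5371, the median 6856 and the highest 10091. Group 3 had 12702, 10792, 4714, 7151 and 3342. All 4 groups overlapped, and the group with the widest range was group 1, in which the highest library was 10.1 times the lowest, against 2.78 times in group 2a, 1.88 in group 2b and 3.80 in group 3. The means were 6838 ± 4781 (SD, n = 5) in group 1, 7615 ± 3443 (n = 5) in group 2a, 7311 ± 1655 (n = 6) in group 2b and 7740.1 ± 3962 (n = 5) in group 3.

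COL3A1, the chain of type III collagen, which accompanies type I in skin and in vessel walls, varied in the same tumors. Its normalized counts were 8797, 22664, 2027, 4049 and 14624 in group 1 and 8438, 5266, 11875, 4539.7 and 10683 in group 2a. In group 2b they ran from 6095 to 13436 with a median of 9523. In group 3 they were 16716, 13356, 6033, 9087 and 4788. Replicates 2 and 5 were the highest and replicate 3 the lowest of group 1 for both chains, and replicates 1 and 2 were the highest and replicate 5 the lowest of group 3. Means were 10432 ± 8386, 8160.3 ± 3229.8, 9570.5 ± 2881 and 9996 ± 5003 in groups 1, 2a, 2b and 3 (SD), with overlap between all groups.

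FN1, which encodes fibronectin, had its highest mean in group 2b. Normalized counts were 3218, 7387, 654, 1504 and 6226 in group 1 and 3794, 3403, 6482, 2667 and 3729.7 in group 2a. In group 2b all 6 libraries lay close together, at 6927, 7406, 6584, 6968, 6569.7 and 7433. In group 3 they were 4218, 6779, 4397, 5016 and 3918. Every group 2b library was above every group 2a library, as for 25.4% of all probes (either group higher), while groups 1 and 3 overlapped with all others. The means were 3798 ± 2927, 4015 ± 1450.05, 6981 ± 378 and 4865 ± 1143 (SD).

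The coefficient of variation of FN1 in group 2b was 5.41%, against 77.1% in group 1. Its SD on the log2 scale in group 2b, 0.08, ranked 566 of the 578 probes whose mean was at least 100 normalized counts, where rank 1 is the most variable probe and the median SD was 0.30. The 2 libraries of a single dog in that group, at 6927 and 7406, lay inside the range of the pools. COL1A1 and COL3A1, at SDs of 0.31 and 0.45, were not narrow in the same 6 libraries.

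**Figure D1:**
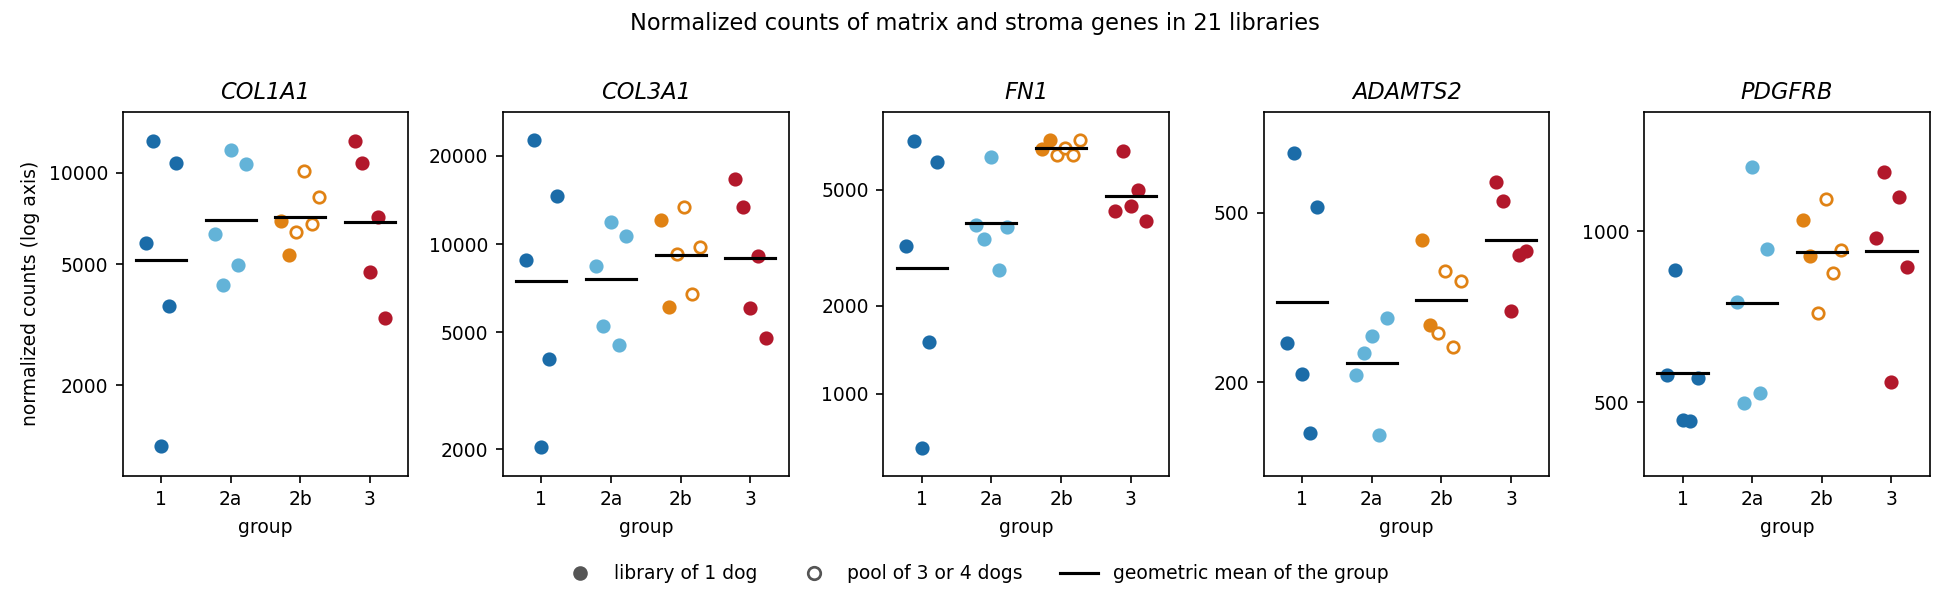
Normalized counts of COL1A1, COL3A1, FN1, ADAMTS2 and PDGFRB on log axes in groups 1, 2a, 2b and 3. Each point is a library, filled for 1 dog and open for a pool of 3 or 4 dogs, and the bar is the geometric mean of the group. The 6 group 2b libraries of FN1 sit between 6569.7 and 7433, above all 5 of group 2a, and the collagens of group 1 spread over a range of 10.1 to 11.2 times.

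ADAMTS2, the procollagen N-proteinase that trims fibrillar procollagens of types I and III, was lowest in group 2a and highest in group 3. Its normalized counts were 248, 692, 209, 152 and 517 in group 1 and 208, 235, 257, 151 and 284 in group 2a. They ran from 242 to 432 with a median of 309 in group 2b. They were 590.4, 534, 294, 398 and 407 in group 3, so that the lowest library of group 3 stood just above the highest of group 2a. The means were 364 ± 231, 227 ± 50.9, 319 ± 73.8 and 445 ± 118 (SD) in groups 1, 2a, 2b and 3.

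PDGFRB, the beta receptor for platelet-derived growth factor on pericytes and fibroblasts, was lowest in group 1. Normalized counts were 559.6, 855, 466.3, 464.5 and 551 in group 1 and 750.05, 498, 1297, 519 and 929.9 in group 2a. In group 2b they ran from 719 to 1137 with a median of 914. In group 3 they were 974, 1267, 543, 1147 and 864. In group 1, 4 of 5 libraries lay below the lowest group 2b library and replicate 2 above it, and in group 3 replicate 3 lay within the range of group 1. Means were 579 ± 161, 799 ± 330.4, 929 ± 148 and 959 ± 279.6 (SD).

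Ordered by mean log2 level, COL1A1 ran from group 2b over 2a and 3 down to 1, and COL3A1 and FN1 from 2b over 3 and 2a down to 1. ADAMTS2 ran from group 3 over 2b and 1 down to 2a, and PDGFRB from 3 over 2b and 2a down to 1. No neighbours in any of these 5 orders differed beyond their spread (adjusted p from 0.392 to 0.999), so that only groups further apart in an order could be separated.

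Tumor cell-rich tissue of stage 2 was compared with that of stage 1 to find changes of tumor tissue between stages. None of the 5 genes was called, that is reached an adjusted p of 0.05 or less, where 0.125% of all probes were called. By the unadjusted limma p under 0.05 there were 0 of 5 as well (14.2% of all probes). Of the 5, 0 were called by edgeR or DESeq2, which called 0 and 20 of all 800 probes. COL1A1 differed by 0.44 on the log2 scale (group 2a minus group 1, standard error (SE) 0.50, adjusted p = 0.708) and FN1 by 0.50 (SE 0.45, adjusted p = 0.642). COL3A1 was at 0.02 (SE 0.51, adjusted p = 0.992). ADAMTS2 was at -0.48 (SE 0.33, adjusted p = 0.537) and PDGFRB at 0.41 (SE 0.26, adjusted p = 0.5). The 95% interval of COL3A1 ran from -1.06 to 1.09, so that differences of about the size of 1 log2 unit in either direction were not excluded by these libraries. Groups 1 and 2a overlapped for all 5 genes, where 2.88% of all probes did not overlap.

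Lymphocyte-enriched tissue of stage 3 was compared with that of stage 2 in the same way. Again none of the 5 genes was called by limma (0.125% of all probes), or by edgeR or DESeq2 (0 of 800 probes each). Of the 5, 0 had an unadjusted limma p under 0.05 (6.25% of all probes). FN1 was 0.55 lower in group 3 on average (-0.55, SE 0.43, adjusted p = 0.981) and ADAMTS2 0.47 higher (SE 0.32, adjusted p = 0.981). The collagens lay at -0.06 (COL1A1, SE 0.48) and -0.03 (COL3A1, SE 0.49), and PDGFRB at 0.00 (SE 0.25), each with an adjusted p = 0.999. The interval of PDGFRB, from -0.52 to 0.53, was the narrowest of the 5. Groups 2b and 3 overlapped for all 5, where 0.5% of all probes did not overlap.

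The stage change itself was compared between both kinds of area by the interaction contrast, (group 3 minus group 2b) minus (group 2a minus group 1). The 2 members with the widest separation were FN1, which was at -1.05 (SE 0.63, adjusted p = 0.437), and ADAMTS2 at 0.94 (SE 0.46, adjusted p = 0.341). No member was called by limma, where 0.125% of all probes were, and 0 had an unadjusted p under 0.05, where 14.9% did.

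Lymphocyte-enriched and tumor cell-enriched areas of stage 2 were compared to describe how the matrix genes differ between areas of the same stage. None of the 5 genes was called by limma, although limma called 38.8% of all probes. None was called by edgeR or DESeq2 either, which called 289 and 328 of 800 probes. Of the 5, 0 had an unadjusted limma p under 0.05 (45.6% of all probes). FN1 was 0.86 higher in group 2b (SE 0.43, 1.82-fold, adjusted p = 0.129) and higher in 6 of 6 libraries than in any of group 2a, where 25.4% of all probes did not overlap. When these groups were fitted alone, FN1 was called (0.86, adjusted p = 0.00399), beside 315 of 800 probes. That fit used only the spread of groups 2a and 2b. FN1 had a log2 SD of 0.08 in group 2b, where 4 of 6 libraries were pools. FN1 was called in 2 of 37 alternatives, the other being the fit without group 1 replicate 3 (adjusted p = 0.0342), and not in the fit without the 4 pools. ADAMTS2 was at 0.49 (SE 0.32, adjusted p = 0.245), PDGFRB at 0.30 (SE 0.25, adjusted p = 0.392), COL3A1 at 0.27 (SE 0.49, adjusted p = 0.708) and COL1A1 at 0.03 (SE 0.48, adjusted p = 0.959), beside a median of all probes of 0.23.

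Groups that differ in both stage and area gave the calls that were made, and in these comparisons stage and area cannot be told apart. Of these pairs, group 2b against group 1 and group 3 against group 2a were chosen after the data were seen. Between group 2b and group 1, FN1 was higher by 1.36 on the log2 scale (SE 0.43, 2.57-fold, adjusted p = 0.0148) and PDGFRB by 0.70 (SE 0.25, 1.63-fold, adjusted p = 0.0265), so that 2 of 5 members were called beside 47.1% of all probes. In group 3 against group 1 only PDGFRB was called (0.71, SE 0.26, 1.63-fold, adjusted p = 0.0377), beside 39.9% of all probes, while FN1 was at 0.82 (SE 0.45, adjusted p = 0.164). Between group 3 and group 2a only ADAMTS2 was called (0.96, SE 0.33, 1.94-fold, adjusted p = 0.0304), beside 35.2% of all probes, and its groups did not overlap, as for 22% of all probes. COL1A1 and COL3A1 were called in none of the 6 pairs of groups on the deposited scale. No member kept its groups apart between 2b and 1 or between 3 and 1, where 28.5% and 23.5% of all probes did.

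These 4 calls were not equally firm. FN1 in group 2b against group 1 was called in 31 of 37 alternative analyses, among them all 21 that left out 1 library, but not with edgeR (0.88, adjusted p = 0.0883) or DESeq2 (0.88, adjusted p = 0.0642) on recovered counts or after libraries were set to equal medians (0.68, adjusted p = 0.2). Its call was also lost, with no smaller fold, when only these groups were fitted (1.36, adjusted p = 0.0547), with Benjamini-Yekutieli adjustment (adjusted p = 0.108) and without the 4 pools (1.40, adjusted p = 0.152). PDGFRB in group 3 against group 1 was called in 20 of 37 and lost without any of 8 single libraries, which were replicates 1, 3, 4 and 5 of group 1 and replicates 1, 2, 4 and 5 of group 3 (0.59 to 0.73, adjusted p from 0.054 to 0.0979). PDGFRB in group 2b against group 1 was lost without group 1 replicate 3, group 1 replicate 4 or group 2b replicate 4 (adjusted p = 0.0624, 0.0637 and 0.0573), and with DV200 as a covariate (0.61, adjusted p = 0.249). ADAMTS2 was lost without group 2a replicate 1 or 4 or group 3 replicate 1 or 2 (0.82 to 0.94, adjusted p from 0.0529 to 0.0819). With equal medians PDGFRB stood only 0.02 (group 2b) and 0.05 (group 3) above group 1, ADAMTS2 was at 0.27 in group 3 against group 2a, and none of these 3 calls held under that or the other 3 scalings tried.

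**Figure D2:**
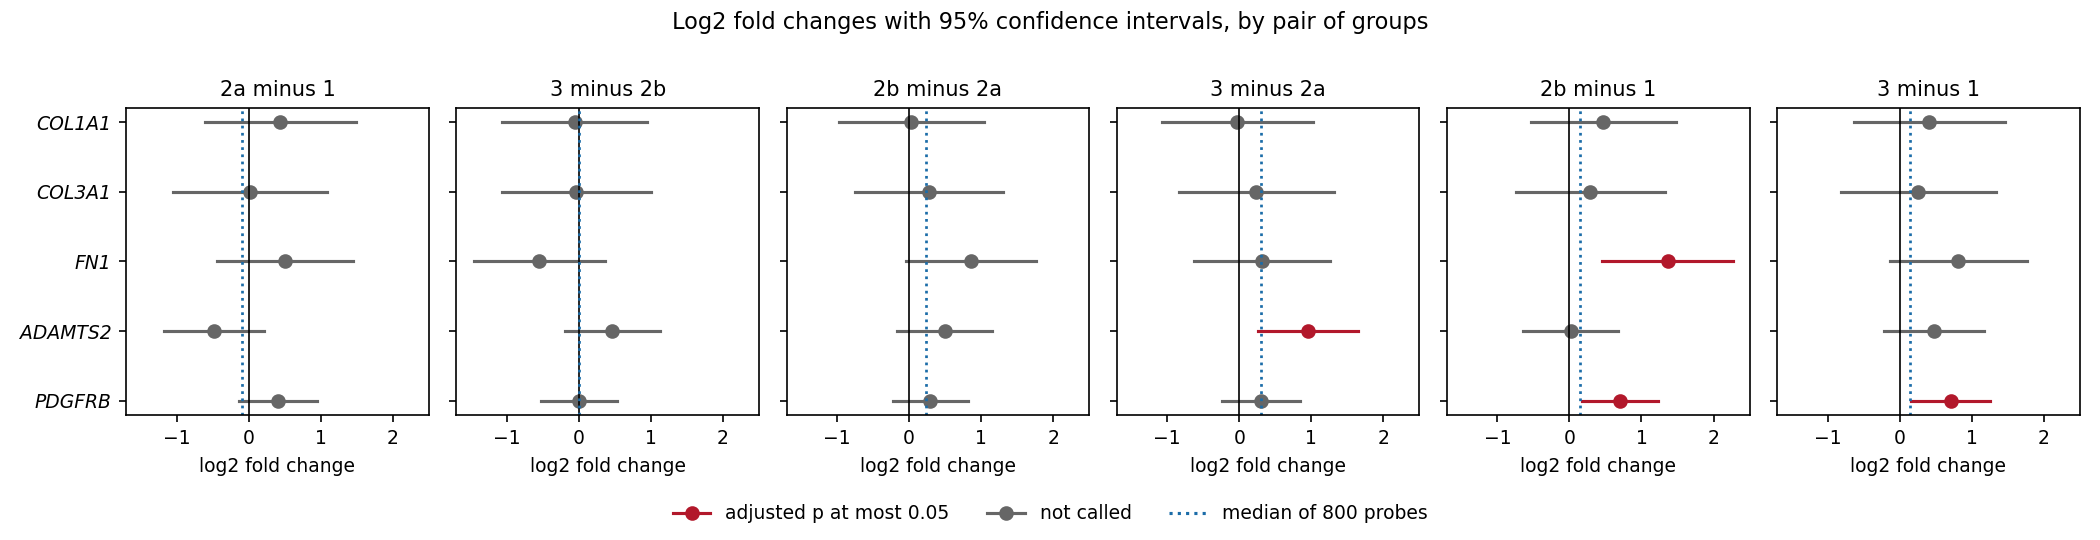
Log2 fold changes of the 5 genes with 95% confidence intervals for the 6 pairs of groups on the deposited scale. Red marks an adjusted p of at most 0.05, and the dotted line is the median of all 800 probes, which lies between -0.09 and 0.30. Only FN1 in group 2b against group 1, PDGFRB in groups 2b and 3 against group 1, and ADAMTS2 in group 3 against group 2a are red.

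The deposited scale mattered for the sign of most area differences. When each library was given the same median, the median of all probes between groups 2b and 2a moved from 0.23 to -0.48, and COL1A1 moved to -0.68, COL3A1 to -0.44, ADAMTS2 to -0.22 and PDGFRB to -0.42, while FN1 stayed above 0 at 0.15. Quantile normalization, TMM factors and the size factors of DESeq2 moved the median of all probes to -0.18, -0.17 and -0.12 and left FN1 at 0.55, 0.45 and 0.51. COL1A1, COL3A1 and PDGFRB were below 0 under each of these 4 scalings.

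**Figure D3:**
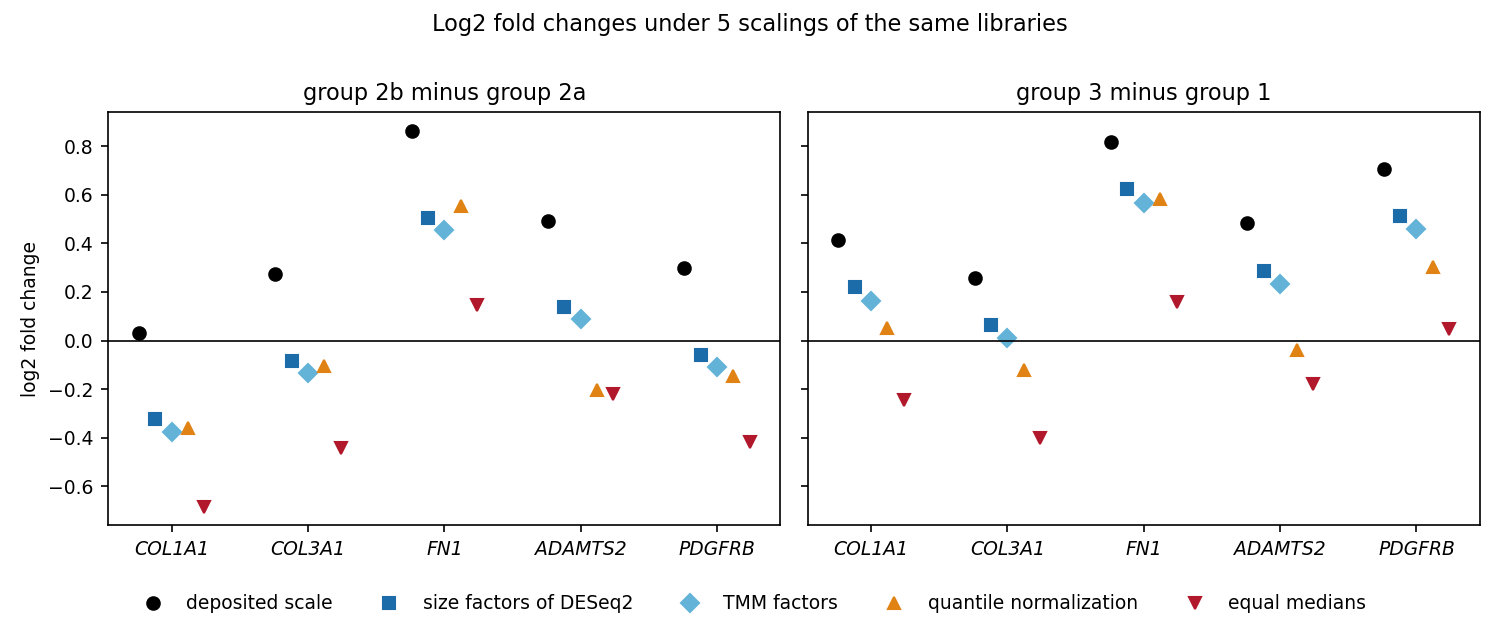
Log2 fold changes of the 5 genes under the deposited scale and 4 other scalings, for group 2b minus group 2a and for group 3 minus group 1. FN1 is above 0 in all 10 cases, from 0.15 to 0.86, whereas COL1A1 between groups 2b and 2a is above 0 only on the deposited scale, at 0.03.

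The collagens and FN1 rose and fell together from tumor to tumor in tumor cell-rich tissue. Across the 10 libraries of groups 1 and 2a, COL1A1 correlated with COL3A1 (Pearson r = 0.95, Spearman rho = 0.96) and with FN1 (r = 0.95, rho = 0.95) on the log2 scale, and COL3A1 with FN1 (r = 0.94, rho = 0.93). Without the 2 libraries farthest from the median of the first gene these r were 0.93, 0.85 and 0.88 (n = 8). Across the 11 libraries of groups 2b and 3, COL1A1 and COL3A1 still varied together (r = 0.93, rho = 0.93, and r = 0.87 without the 2 farthest), but FN1 varied less with COL1A1 (r = 0.32, rho = 0.25) and with COL3A1 (r = 0.25, rho = 0.30). Without the 2 libraries farthest from the median of the collagen, these r of FN1 were 0.47 and 0.39 (n = 9). Within the 6 libraries of group 2b alone, where FN1 itself hardly varied, its r was 0.03 with COL1A1 and -0.05 with COL3A1. Within group 3 alone the r of FN1 were 0.53 and 0.49. These are descriptions without a test, and genes of 1 library share its RNA amount, its quality and its scaling factor.

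ADAMTS2 followed COL3A1 in both kinds of area (r = 0.79 and 0.64, rho = 0.88 and 0.53). PDGFRB varied with COL1A1 in both (r = 0.72 and 0.59, rho = 0.87 and 0.75).

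**Figure D4:**
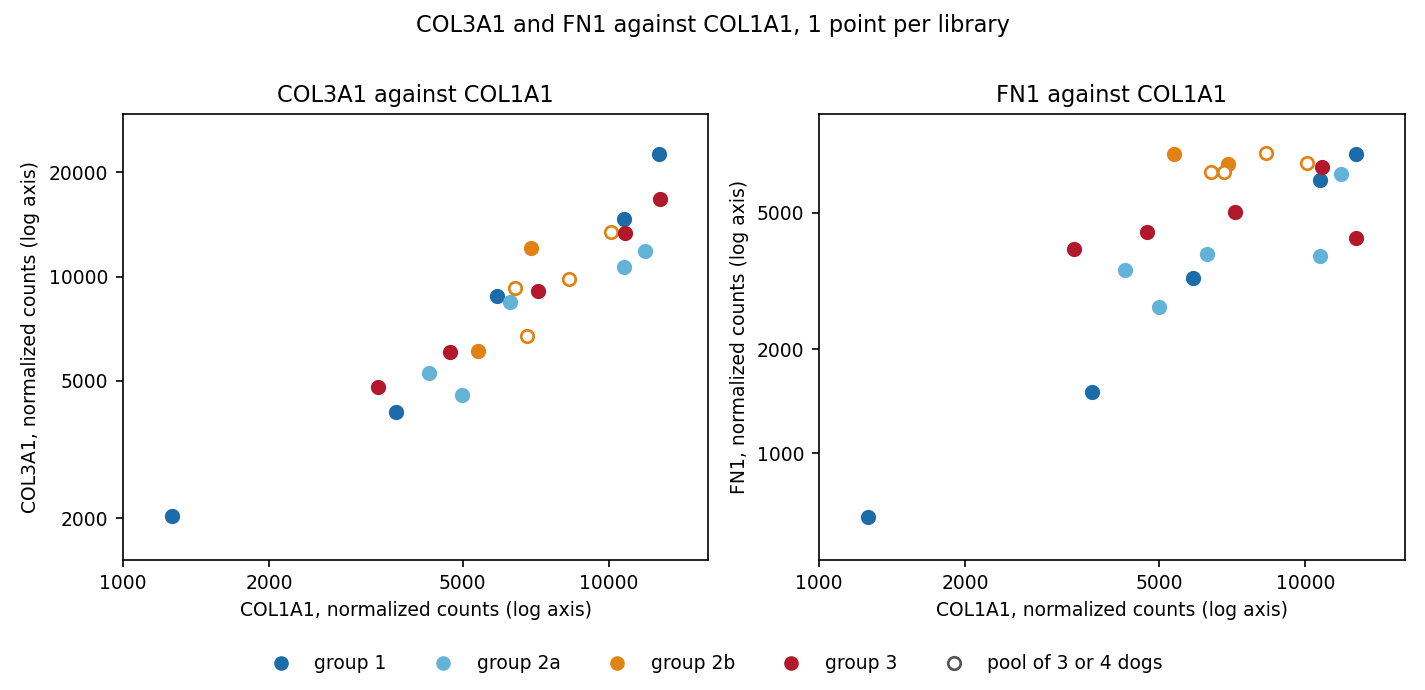
COL3A1 and FN1 against COL1A1, in normalized counts on log axes, with 1 point per library colored by group and open points for pools. COL3A1 follows COL1A1 in all groups, whereas the 6 group 2b libraries lie at the same FN1 level of 6569.7 to 7433 over COL1A1 values from 5371 to 10091.

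Within group 1 the libraries had the same order for COL1A1, COL3A1 and FN1, with replicate 2 highest, followed by replicates 5, 1, 4 and 3. DV200 was 64.5% in replicate 5, 68.3% in replicate 2, 68.9% in replicate 1, 69.4% in replicate 4 and 71.2% in replicate 3, so that both libraries with the most collagen had the lowest DV200. The summed level of 16 T cell genes was highest in replicates 3 and 4, at 11872 and 8385 normalized counts, and 680 to 3737 in the other 3, in a stage that is defined as free of lymphocytes. That of 14 B cell genes was instead highest in replicate 5, at 11283.5 against 3297 to 4344 in the others. The summed level of 13 macrophage genes was highest in replicate 2, at 17360.4 against 4397 to 9624, and that of 4 keratinocyte genes was 5989.98 in replicate 1 and 5522 in replicate 4 against 824 to 1910 in the others. The part of any of these in the order of the collagens was not tested.

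Ratios between genes of the same library do not depend on the scale of the library. The ratio of COL3A1 to COL1A1 had a geometric mean of 1.45 in group 1, 1.09 in group 2a, 1.28 in group 2b and 1.31 in group 3, and 3 of 5 group 2a libraries were below all of group 1. On the log2 scale group 2a was 0.42 lower than group 1 (two-sided exact permutation test, p = 0.0397, adjusted p = 0.212 over 16 such comparisons). In group 3 the ratio varied little, from 1.24 to 1.43, although the chains themselves varied 3.80 and 3.49 times.

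FN1 relative to the mean log2 level of both collagens was 0.71 higher in group 2b than in group 2a, and 5 of 6 group 2b libraries lay above all of group 2a (exact permutation test, p = 0.0108, adjusted p = 0.173). In group 1 this ratio stayed within 0.392 to 0.497 while FN1 varied 11.3 times. ADAMTS2 relative to the collagens was 0.51 higher in group 3 than in group 2b, with 3 of 5 group 3 libraries above all of group 2b (exact permutation test, p = 0.0368, adjusted p = 0.212). PDGFRB relative to the collagens differed by 0.14 between groups 2b and 2a (exact permutation test, p = 0.346, adjusted p = 0.504). None of the 16 ratio comparisons passed after adjustment.

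**Figure D5:**
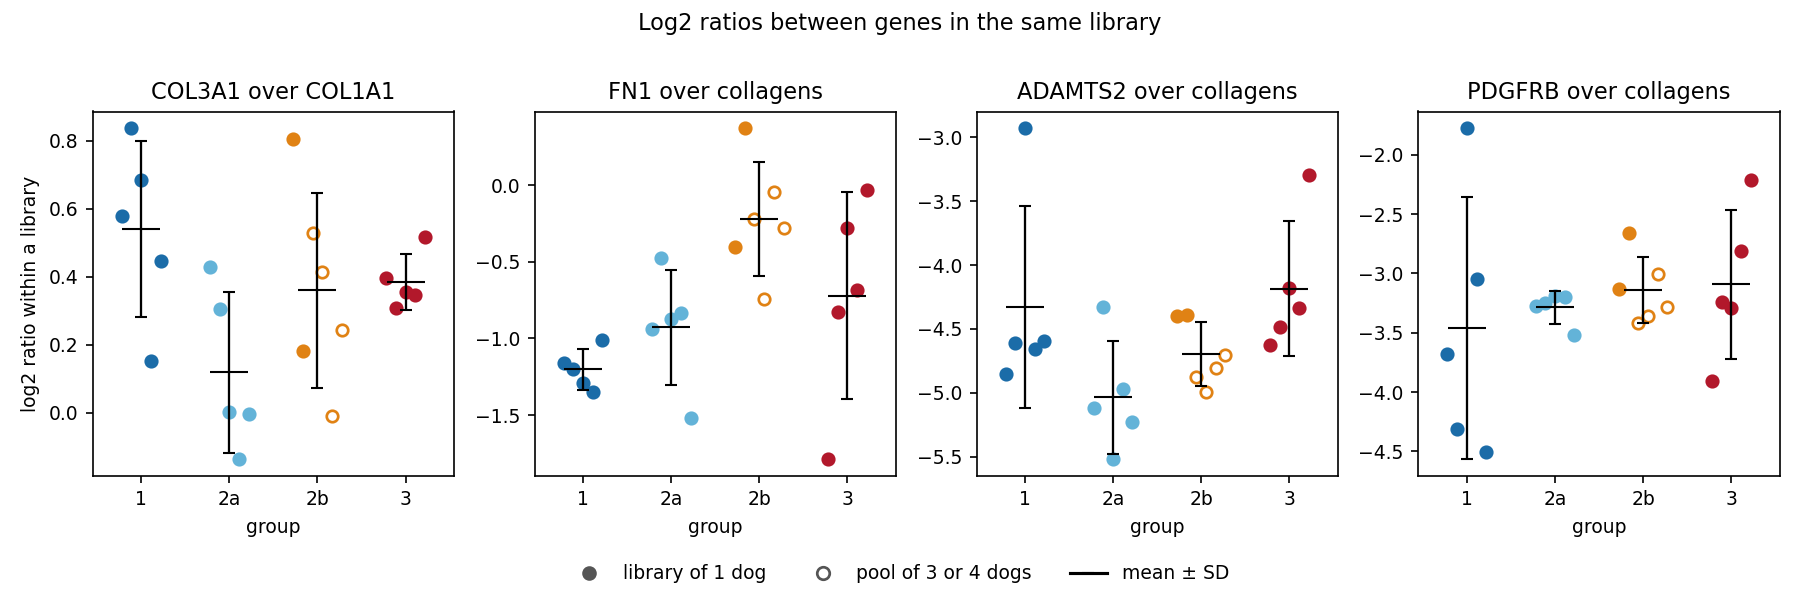
Log2 ratios within a library, 1 point per library (open for pools), with mean and SD by group. Collagens stands for the mean log2 level of COL1A1 and COL3A1. FN1 over collagens sits between -1.35 and -1.01 in group 1 and reaches 0.37 in group 2b.

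Probes outside the list that varied most like each member were ranked by the mean of their r in the 10 tumor cell-rich and the 11 lymphocyte-enriched libraries. For COL1A1 these were TNFRSF1A, a receptor for tumor necrosis factor (mean r = 0.70), LRP1, an endocytic receptor (0.65), and TLR4, the receptor for bacterial lipopolysaccharide (0.60). For COL3A1 they were TNFRSF1A (0.77), LRP1 (0.67) and the integrin chain ITGB3 (0.64). No probe was as close to either collagen as the other collagen (mean r = 0.94). For FN1 they were HIF1A, the oxygen-regulated transcription factor (0.71), TLR4 (0.70) and TNFSF11, the ligand RANKL (0.69).

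On the deposited scale HIF1A, like FN1, was highest in group 2b (2322 ± 108, against 898 ± 148 in group 1, 1456 ± 462 in group 2a and 1794 ± 221 in group 3). TNFSF11 instead was lower in lymphocyte-enriched tissue (-2.27 between groups 2b and 2a, SE 0.46, adjusted p = 6.82e-04), so that its likeness to FN1 did not hold between the areas. Its r with FN1 was 0.53 in tumor cell-rich and 0.86 in lymphocyte-enriched libraries. Each r was taken across both groups of a kind of area, so that differences between stages enter it. For ADAMTS2 the closest probes were the chemokine CXCL14 (0.75), the TWEAK receptor TNFRSF12A (0.72) and ITGB3 (0.69). For PDGFRB they were C1R, a protease of the complement cascade (0.77), PDGFRA, the alpha receptor for platelet-derived growth factor (0.76), and LRP1 (0.75).

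Of a longer list of 26 interstitial collagens and matrix glycoproteins, 5 were on the panel, among them COL1A1, COL3A1 and FN1 of the short list. Of 19 basement membrane genes 0 were. For the counts of this and the next lists, 32.2% of all probes were called higher and 6.5% lower in group 2b than in group 2a, and 29.4% higher and 10.5% lower in group 3 than in group 1. SPP1, which encodes osteopontin, a glycoprotein of bone matrix and macrophages, was the only one of the 5 called between groups 2b and 2a (2.15, SE 0.75, adjusted p = 0.028) and between groups 3 and 1 (3.50, SE 0.78, adjusted p = 0.00147). Its normalized counts spanned 179.6 to 3079 in group 1 and 313 to 7211 in group 2a. They spanned 3154 to 22043 in group 2b, with 1685 to 7486 for group 3. SPP1 was not called between groups 2b and 2a after equal medians (1.43, adjusted p = 0.0839). The median of the 5 genes, which is the value of COL3A1, was 0.27 between groups 2b and 2a, beside 0.23 for all probes. The summed level of 13 macrophage genes was 4397 to 17360.4 in tumor cell-rich libraries and 9847 to 20497 in lymphocyte-enriched ones. Its means in groups 1, 2a, 2b and 3 were 9111, 8159, 16757 and 16467. Those of SPP1 were 813, 2967, 10265 and 5089. The part of macrophages in the level of SPP1 was not tested.

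Of 44 matrix proteases and their inhibitors, 7 were on the panel. Between groups 2b and 2a, PLAU, the urokinase that activates plasminogen, was higher (0.98, SE 0.35, adjusted p = 0.032) and SERPINB2, an inhibitor of urokinase, was lower (-3.14, SE 0.54, adjusted p = 1.73e-04). The same genes were called between groups 3 and 1, at 1.04 (adjusted p = 0.0287) and -3.40 (adjusted p = 1.45e-04). SERPINB2 kept its call after equal medians (-3.85 and -4.06), whereas PLAU did not (0.26 and 0.38, adjusted p = 0.527 and 0.356). ADAMTS2 and the collagenase MMP1 were not called in either comparison, MMP1 at -0.18 (SE 1.00) and 0.66 (SE 1.04).

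Fibroblast and mural cell markers were called in both directions, as all probes were. Of 10 on the panel (20 listed), 3 were higher and 1 was lower in group 2b than in group 2a (32.2% and 6.5% of all probes). Between groups 3 and 1, 4 were higher, among them PDGFRB of the short list, and 2 lower in group 3 (29.4% and 10.5% of all probes). THY1, a surface protein of fibroblasts and, in dogs, of T cells, averaged 2117 ± 352 in the former and 766 ± 256 in the latter stage 2 area, 2b and 2a (log2 difference 1.50, SE 0.21, adjusted p = 2.61e-05). CXCL12, a chemokine of stromal cells, was higher by 1.28 (adjusted p = 0.00835), and CD34, a marker of vessels and of dermal fibroblasts, by 0.87 (adjusted p = 0.00656). VIM, the intermediate filament of mesenchymal and also of white blood cells, was lower by 0.74 (-0.74, adjusted p = 0.0177).

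In group 3 against group 1, NT5E, the enzyme CD73, was lower (-1.81, SE 0.38, adjusted p = 0.00102) and THY1 higher (1.58, adjusted p = 3.12e-05). PDGFRA was called in neither comparison (0.06, SE 0.33, and 0.16, SE 0.34, or -0.66 and -0.50 after equal medians). THY1, VIM and NT5E kept their calls and signs after equal medians in the comparisons named, while CXCL12 and CD34 lost theirs (0.57 and 0.15, adjusted p = 0.162 and 0.614), and the list then had 1 gene called higher and 2 lower in group 2b than in group 2a, where 13.9% and 38.2% of all probes were. The summed level of 16 T cell genes was 3127 to 8376 in group 2a and 14679 to 26334 in group 2b, and that of 6 endothelial genes was 1783 to 4198 and 2147 to 3327. Their part in the levels of THY1 and CD34 was not tested.

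Among 17 growth factors and receptors that act on fibroblasts, PDGFRB included (38 listed), 4 were higher and 3 lower in group 2b than in group 2a, with a median of 0.11. FGFR1, a receptor for fibroblast growth factors, was at 589.6 ± 76.2 against 209 ± 108 (1.63, SE 0.30, adjusted p = 2.95e-04), and TGFB2, a ligand that induces matrix synthesis, at 131 ± 21.1 against 60.8 ± 26.7 (1.19, SE 0.29, adjusted p = 0.00268). IL13RA1, a chain of the receptor for interleukins 4 and 13, was lower (-0.87, SE 0.17, adjusted p = 5.03e-04), as was LIF, a cytokine related to interleukin 6 (-1.94, SE 0.43, adjusted p = 0.00139). FGFR1, IL13RA1 and LIF kept their calls after equal medians (0.92, -1.58 and -2.65), and TGFB2 did not (0.48, adjusted p = 0.181). TGFB1 was at -0.38 (SE 0.16, adjusted p = 0.067) and PDGFC, a ligand of PDGF receptors, at 0.55 (SE 0.27, adjusted p = 0.126). After equal medians 1 gene of the list was called higher and 7 lower (13.9% and 38.2% of all probes), among them TGFB1 (-1.10), and PDGFC was at -0.17.

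Of 14 receptors for collagen and fibronectin (27 listed), 4 were higher and 0 lower in group 2b than in group 2a, with a median of 0.24 beside 0.23 for all probes. LAIR1, an inhibitory collagen receptor of leukocytes, was at 780.3 ± 261 against 212 ± 98.5 (1.91, SE 0.28, adjusted p = 3.89e-05). SDC4, a heparan sulfate receptor that binds fibronectin, was at 2314 ± 320.5 against 578 ± 253 (2.09, SE 0.31, adjusted p = 4.48e-05). ITGA4, the integrin chain by which lymphocytes bind fibronectin, was higher by 1.29 (adjusted p = 0.00268) and ITGA1, a chain of a collagen-binding integrin, by 0.69 (adjusted p = 0.0498). LAIR1 and SDC4 kept their calls after equal medians (1.20 and 1.37), and ITGA4 and ITGA1 did not (0.58 and -0.03, adjusted p = 0.0544 and 0.944). ITGA5, which forms the classical fibronectin receptor with ITGB1, was at 0.19 (SE 0.30, adjusted p = 0.678), and ITGB1 at -0.12 (SE 0.13, adjusted p = 0.508). After equal medians 2 receptors were called higher and 5 lower (13.9% and 38.2% of all probes), among them ITGB1 (-0.84, adjusted p = 5.04e-04), and ITGA5 was at -0.53.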

How the data were processed

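The deposited values were signal per probe from the nCounter Canine IO Panel after quality control and normalization by the authors in nSolver at default settings, and the submitters' processing notes name R 3.3.2. Values were linear normalized counts, and 100% of them, leaving aside 18 raised to 1, were whole multiples of 1 step per library within 0.01 counts, which gave recovered counts. Depth was 484696 to 1315188 recovered counts per library. Precision was limited by the spread between libraries. Replicates were different dogs or pools of dogs.

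Groups came from the sample labels. The 800 probes were fitted with limma 3.58.1 in R 4.3.3 (lmFit, eBayes with trend) on log2(value + 1), with 4 group means over all 21 libraries. Tests were two-sided, adjusted by Benjamini-Hochberg over all probes with calls at an adjusted p of 0.05 or less. Fold changes are on the log2(value + 1) scale. Alternatives were pseudocounts of 0.5 and 8, probes with a mean of at least 20 only (751), equal medians, quantile normalization, no trend, array weights, only the groups compared, DV200 as a covariate, a replicate block, Benjamini-Yekutieli adjustment, edgeR 4.0.16 and DESeq2 1.42.0 on recovered counts, no pools, and each library left out. TMM factors, size factors of DESeq2, groups 2b minus 1 and 3 minus 2a, and the ratios were chosen after seeing the data. The script was tested on simulated data.

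The members and the gene lists were chosen with earlier results of these data known. Other genes were named by rule: the 3 probes most like each member, with a median of at least 20, and from each stroma list up to 4 called genes with the smallest adjusted p between groups 2b and 2a and up to 2 in other contrasts. MMP1, PDGFRA, PDGFC, TGFB1, ITGA5, ITGB1, CD3E, CD207 and FLT3 were named outside this rule, with their values seen. All 5 members matched RefSeq symbols.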

Additional observations from a re-analysis of the deposited data

Results flagged for a closer look

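PDGFRB stood at 854.88 normalized counts in group 1 replicate 2, far from the next highest library of that group at 559.64, in a range that began at 464.54. On the log2 scale the same distance was not past the limit (0.69 of the range, against 0.71). Distances of this kind were looked for in 20 sets of 1 gene in 1 group, and chance marks about 1 set in 20. This library also had the highest COL1A1, COL3A1, FN1 and ADAMTS2 of group 1 and the highest summed level of 13 macrophage genes. Without it, PDGFRB in group 3 against group 1 was at 0.86 (adjusted p = 0.0149). FN1 and ADAMTS2, which were not called with it, were called in the same comparison (1.18 and 0.77, adjusted p = 0.0337 and 0.0473), beside 320 of 800 probes. Leaving out the highest library of the lower group raises such a difference. Over all 21 fits without 1 library, FN1 ranged from 0.30 to 1.18 and ADAMTS2 from 0.23 to 0.77. The highest adjusted limma p were 0.515 and 0.606, and neither gene was called in any other of these fits. For FN1 and ADAMTS2 this library was not past the limit (0.07 and 0.19 of the range on the log2 scale).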

How the results depend on the processing

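FN1 in group 2b against group 1 kept its direction in all 37 alternatives, and so did PDGFRB against group 1 and ADAMTS2 in group 3 against group 2a. The cause of the changes below was not tested. Between groups 2a and 1, 1 probe was called, against 0 with equal medians, quantile normalization, no trend, array weights, DV200, the replicate block, Benjamini-Yekutieli adjustment, edgeR or no pools, 20 with DESeq2, 8 with TMM factors and 9 with size factors. Between groups 3 and 2b, 1 probe was called, against 25 with array weights, 3 with a pseudocount of 8, and 0 with a pseudocount of 0.5, no trend, only these groups, DV200, the block, Benjamini-Yekutieli adjustment, edgeR, DESeq2, TMM or size factors, or no pools. Between groups 2b and 2a the 310 calls became 193 with Benjamini-Yekutieli adjustment and 123 without pools, and between groups 3 and 1 the 319 became 195 with that adjustment and 196 with DV200. Between groups 2b and 2a calls split into 258 higher and 52 lower, against 111 and 306 with equal medians, 138 and 189 with quantile normalization, 156 and 173 with TMM and 163 and 159 with size factors. For groups 3 and 1 they split into 235 and 84, against 115 and 327, 162 and 202, 183 and 176, and 194 and 152.

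Among the 5 genes, 1 was called between groups 2b and 2a when these were fitted alone (315 of 800 probes). For groups 3 and 1, 0 were called with equal medians, quantile normalization, TMM or size factors, only these groups, DV200, the block, Benjamini-Yekutieli adjustment or no pools. Between groups 2b and 1, 0 were called with equal medians, Benjamini-Yekutieli adjustment or no pools, and 1 with quantile normalization, TMM or size factors, only these groups, DV200, the block, edgeR or DESeq2. Between groups 3 and 2a, 0 were called with equal medians, quantile normalization, TMM or size factors, Benjamini-Yekutieli adjustment or no pools.

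Signs turned as follows. Between groups 2b and 2a, equal medians gave COL1A1 -0.68, COL3A1 -0.44, ADAMTS2 -0.22 and PDGFRB -0.42, quantile normalization -0.36, -0.11, -0.20 and -0.14. TMM gave COL1A1 -0.38, COL3A1 -0.13 and PDGFRB -0.11, size factors -0.32, -0.083 and -0.059, and COL1A1 was at -0.059 with edgeR and DESeq2 and at -0.20 without pools. For groups 3 and 1, equal medians gave COL1A1 -0.25, COL3A1 -0.40 and ADAMTS2 -0.18, quantile normalization COL3A1 -0.12 and ADAMTS2 -0.038, and edgeR and DESeq2 COL3A1 -0.062. COL3A1 between groups 2a and 1 was at -0.35 with edgeR and DESeq2 and at -0.15 with quantile normalization. Between groups 3 and 2b, COL1A1 was at 0.053 with quantile normalization, 0.082 with edgeR and DESeq2 and 0.17 without pools, and COL3A1 at 0.13, 0.063 and 0.066 and at 0.059 with array weights. Without pools PDGFRB was at -0.076 there, COL3A1 over COL1A1 at -0.11 and PDGFRB over collagens at -0.20.

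With 1 library left out, COL1A1 ranged from -0.068 to 0.76 (2a minus 1), -0.15 to 0.22 (2b minus 2a), -0.094 to 0.74 (3 minus 1) and -0.28 to 0.20 (3 minus 2b). COL3A1 ranged from -0.45 to 0.42 (2a minus 1), -0.21 to 0.66 (3 minus 1) and -0.26 to 0.19 (3 minus 2b), FN1 from -0.0094 to 0.86 (2a minus 1) and PDGFRB from -0.11 to 0.19 (3 minus 2b). Group 1 replicate 3 turned COL1A1 and COL3A1 between groups 3 and 1 and COL1A1, COL3A1 and FN1 between groups 2a and 1, and COL3A1 in the latter also turned without 4 other libraries. ADAMTS2 over collagens ranged from -0.077 to 0.50 (3 minus 1), COL3A1 over COL1A1 from -0.0498 to 0.11 (3 minus 2b), and PDGFRB over collagens from -0.084 to 0.60 (2a minus 1) and -0.17 to 0.25 (3 minus 2b). Calls of all probes ranged from 0 to 12 (2a minus 1) and 0 to 18 (3 minus 2b), and calls among the 5 genes from 1 to 2 (2b minus 1), 0 to 1 (2b minus 2a and 3 minus 2a) and 0 to 3 (3 minus 1).

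Libraries of the same replicate number came from different dogs and did not deviate together (r from -0.36 to 0.20). With the replicate number as a block, COL1A1 between groups 2b and 2a was at -0.0105, 265 probes passed in that comparison and 288 for groups 3 and 1, and PDGFRB was no longer called against group 1 (adjusted p = 0.0697 in group 2b and 0.0731 in group 3).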
